A study of Homo sapiens with 12 samples.

Results

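The genes described here are the 4 STEAP genes (STEAP1, STEAP2, STEAP3 and STEAP4) and 4 genes whose expression is largely restricted to prostate or to its secretions (FOLH1, ACP3, TRPM8 and MSMB), 8 genes chosen by name out of 54127 gene identifiers in the count files. An identifier was matched for 7 of the 8, and all 7 were among the 14501 genes that passed the expression filter and were tested. MSMB, which encodes the seminal protein beta-microseminoprotein, had no matching identifier and has no value here. Its identifier in the reference used (ENSG00000263639) is not in the count files. An older identifier may be present but was not sought, so MSMB is not shown to be unexpressed. The cells were C4-2, an androgen receptor-positive human prostate cancer line derived from LNCaP. They were grown in RPMI with 10% fetal bovine serum and transfected with a 50 nM siRNA pool either against CHKA, which encodes choline kinase alpha (SiCHKA in the labels, siCHKA hereafter), or with nontargeting siRNA (SiNTCONTROL in the labels, siNT hereafter), with 6 samples in each group. The labels state that RNA came from flow-sorted cells. All 12 samples come from a single line. The study's figure legends differ: the genes changed by siCHKA are credited to biological triplicate experiments, and the levels of single genes to 6 biological replicates. The labels do not say whether the 12 samples were separate cultures. The number of independent experiments behind each group of 6 is therefore not known, and the p-values measure the spread between these samples.

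STEAP proteins are multi-pass membrane haem proteins. STEAP2, STEAP3 and STEAP4 carry a cytosolic NADPH-binding domain and reduce ferric iron and cupric copper, so that the metals can be taken across membranes, whereas STEAP1 lacks that domain. STEAP3 is the main ferrireductase of transferrin-containing endosomes. FOLH1 encodes prostate-specific membrane antigen (PSMA), a cell-surface glutamate carboxypeptidase that trims folate polyglutamates and is used as an imaging and radioligand target. ACP3 encodes prostatic acid phosphatase, and TRPM8 encodes a calcium-permeable cation channel opened by cold and menthol. Several of these genes are known to be under control of the androgen receptor in prostate cells, and STEAP1 and PSMA are surface targets in prostate cancer.

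Total counts ranged from 12158361 to 20670479 in the siCHKA samples and from 10685184 to 24246055 in the siNT samples, so that 3 counts correspond to between 0.124 and 0.281 CPM (counts scaled by TMM-normalized library size). CHKA was at 2.75 ± 1.03 CPM after siCHKA and 40.7 ± 2.55 CPM after siNT (SD, n = 6 each). All 10 luminal prostate markers passed the filter, and their summed level was 4980 to 5807 CPM after siCHKA and 5767 to 7259 CPM after siNT. Among them 7 were lower and 3 higher after siCHKA (edgeR's quasi-likelihood test, adjusted p below 0.05), where 30.1% of all tested genes were lower and 32.1% higher. Of the other cell types, 2 of 6 basal, 1 of 7 neuroendocrine, 4 of 9 fibroblast and smooth muscle, 1 of 6 immune and 1 of 3 matched endothelial markers passed the filter. The fibroblast and smooth muscle sum was 26.6 to 34.5 CPM after siCHKA and 16.2 to 23.6 CPM after siNT, most of it COL1A1 (26.8 ± 2.10 and 15.03 ± 2.33 CPM, SD, n = 6), while the muscle marker DES was at 0 in every sample. No count was found for the T cell marker CD3E or the neuroendocrine factor INSM1, and the group means of KRT5 and TP63 (basal) and KDR (endothelial) were between 0 and 0.024 CPM. Other markers of these lists were measured and called in edgeR's test. The means (n = 6 each) are given after siCHKA and then after siNT. The basal markers went opposite ways, with DST at 12.1 and 19.03 CPM and KRT14 at 1.80 and 1.21 CPM. So did 2 of the fibroblast and smooth muscle list, PDGFRB at 1.37 and 3.74 CPM and ACTA2 at 0.964 and 0.539 CPM. VWF (endothelial) was at 1.52 and 3.00 CPM, CD68 (immune) at 4.88 and 2.98 CPM and SYP (neuroendocrine) at 1.99 and 1.23 CPM. The part of these cell type markers in the results was not tested. Among the siCHKA samples, replicates 2, 4 and 6 stood apart from replicates 1, 3 and 5: the chi-square per degree of freedom between counts was 2.39 to 4.09 within the former set, 4.05 to 9.50 within the latter and 12.5 to 24.9 across them. The siNT pairs ranged from 2.51 to 30.9 with no such division by odd and even numbers, and siNT replicate 3 was at 17.7 to 30.9 against replicates 2, 4, 5 and 6. The labels name no batch that separates these sets, so values with each set alone are given beside the results.

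STEAP3 and TRPM8 fell after siCHKA, FOLH1 and ACP3 rose, and STEAP1, STEAP2 and STEAP4 did not pass the test. Thus 2 of 7 genes were lower and 2 of 7 higher at an adjusted p below 0.05, where 30.1% of all tested genes were lower and 32.1% higher. STEAP3 and TRPM8 were below every siNT sample in every siCHKA sample, a pattern seen in 21.5% of tested genes. FOLH1 was above every siNT sample in every siCHKA sample, as 19.1% of tested genes were. These shares of called and non-overlapping genes were near the background. The median log2 fold change was -0.08 over the 7 genes and 0.04 over all tested genes. A lower value in bulk RNA can come from fewer cells of a kind or from less RNA per cell, which cannot be told apart.

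**Figure D1:**
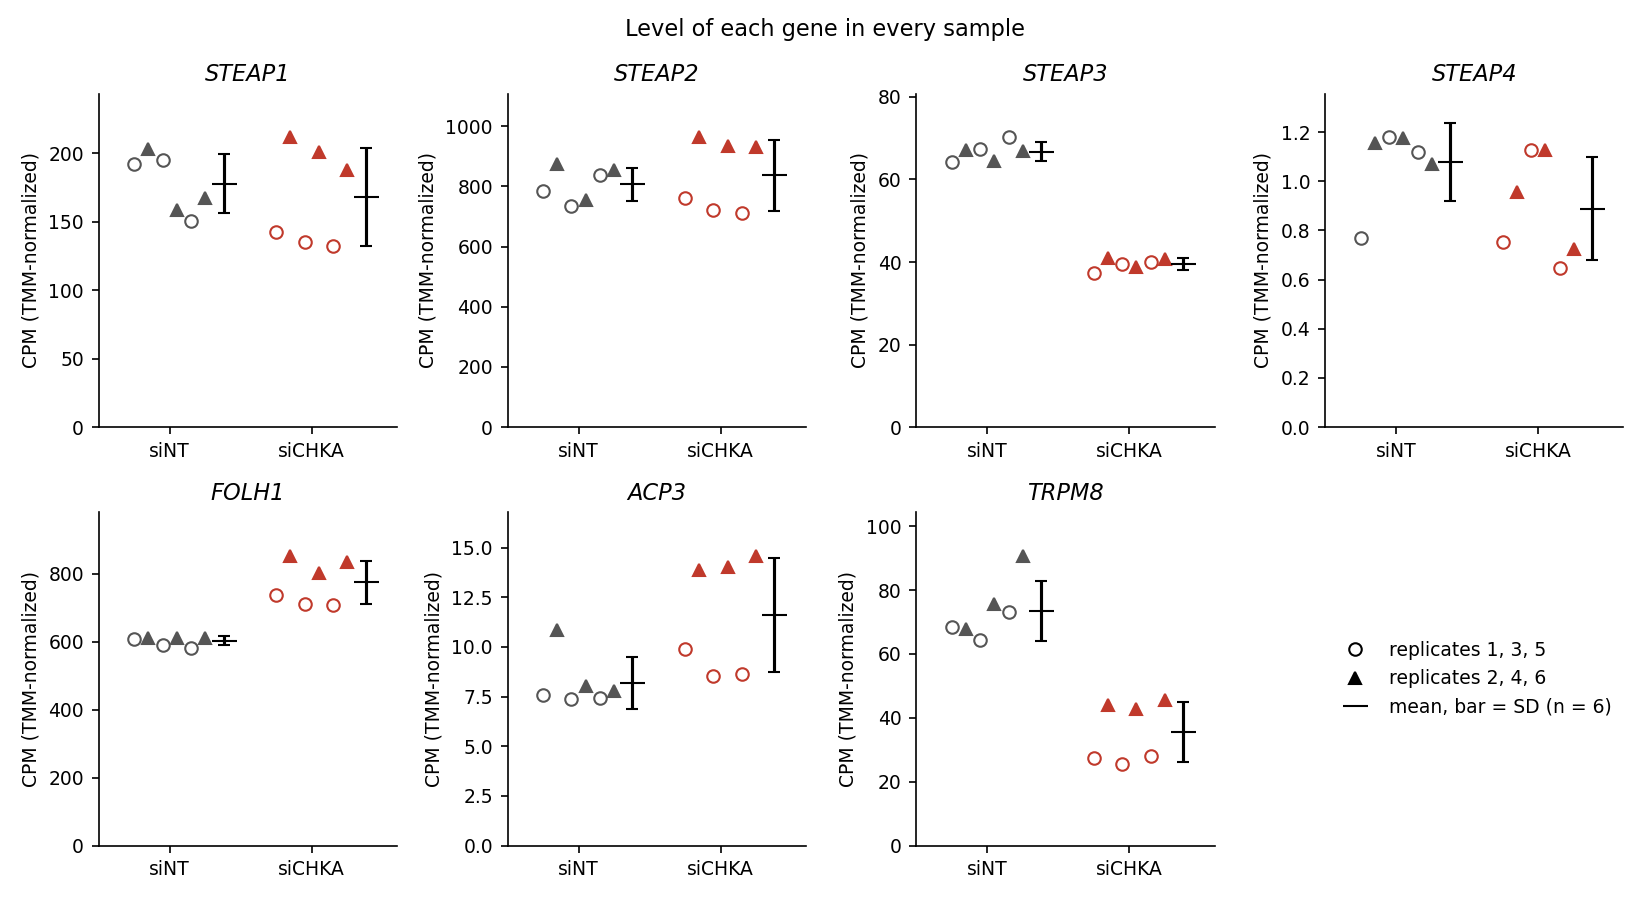
TMM-normalized CPM (linear axes from 0) of each of the 7 measured genes in the 6 siNT and 6 siCHKA samples, with open circles for replicates 1, 3 and 5, triangles for replicates 2, 4 and 6, and the mean with its SD beside each group. STEAP3 and TRPM8 lie wholly below the siNT samples after siCHKA and FOLH1 wholly above, and in STEAP1, STEAP2, FOLH1, ACP3 and TRPM8 siCHKA replicates 2, 4 and 6 lie above replicates 1, 3 and 5.

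To compare genes, levels were expressed as CPM per kilobase of exon length (GENCODE release 44). The counts were made on GRCh37, so these lengths can differ from the exons counted. Of 40-base words, 28.4% were shared with other genes for STEAP1, 24.2% for FOLH1 and 2.48% for STEAP2. Reads that match several places equally were left out, so levels of STEAP1 and FOLH1 can be too low beside STEAP2. The order of genes and the ratio of STEAP2 to STEAP1 are approximate for these reasons. STEAP1 (115 ± 14.1), FOLH1 (113 ± 2.42) and STEAP2 (92.5 ± 6.42) were the most abundant of the 7 in siNT cells, at percentiles 97.8, 97.8 and 97.0 of the tested genes with a known length (SD, n = 6). The ranges of STEAP1 and FOLH1 overlapped, as did those of STEAP1 and STEAP2, whereas FOLH1 (109 to 115) and STEAP2 (84.5 to 100.2) did not. STEAP3 (14.6 ± 0.50), TRPM8 (9.26 ± 1.19), ACP3 (1.91 ± 0.31) and STEAP4 (0.096 ± 0.014) followed, each with a range apart from its neighbours. After siCHKA the order of the means was FOLH1 (145), STEAP1 (109 ± 23.2), STEAP2 (96.0 ± 13.5), STEAP3 (8.66 ± 0.30), TRPM8 (4.49 ± 1.19), ACP3 (2.71 ± 0.67) and STEAP4 (0.079 ± 0.019). The ranges of TRPM8 (3.23 to 5.77) and ACP3 (1.99 to 3.41) then overlapped, as did those of FOLH1 (133 to 160) and STEAP1 (85.7 to 137). From siNT to siCHKA the percentile of the mean level went from 97.8 to 98.7 for FOLH1, from 64.4 to 48.1 for TRPM8 and from 75.2 to 64.8 for STEAP3.

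**Figure D2:**
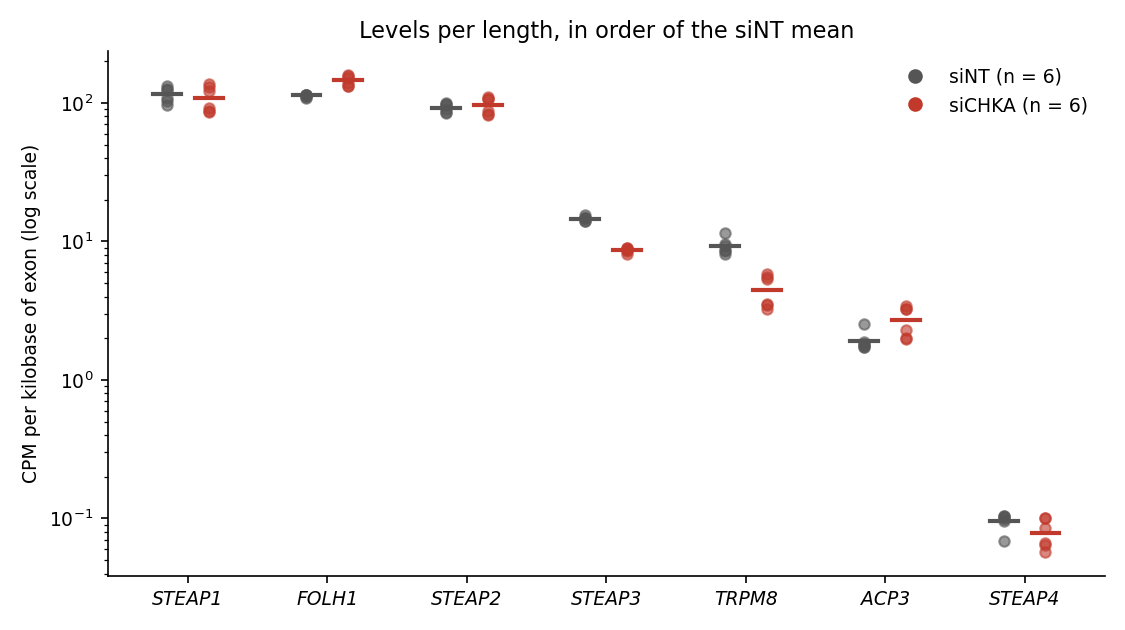
CPM per kilobase of exon length (log axis) of the 7 genes in the siNT and siCHKA samples, with points for samples and lines at the mean. STEAP1, FOLH1 and STEAP2 lie highest, with means of 92.5 to 145, and STEAP4 lowest, at 0.096 in siNT and 0.079 in siCHKA.

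STEAP1 (ENSG00000164647, chromosome 7, 90154456 to 90164829 on the plus strand of GRCh38) encodes the family member that lacks the NADPH-binding domain. Its lowest, median and highest CPM were 150, 180 and 203 in the siNT samples, and 132, 165 and 212 in the siCHKA samples. The groups overlapped, with siCHKA replicates 1, 3 and 5 below every siNT sample and siCHKA replicate 2 above every siNT sample. The log2 fold change was -0.08 (SE 0.12, 95% confidence interval -0.33 to 0.17, adjusted p = 0.584 by edgeR's quasi-likelihood test; exact two-sided permutation p = 0.502).

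STEAP2 (ENSG00000157214, chromosome 7, 90167590 to 90238137, plus strand) encodes a metalloreductase of the same locus and begins, in GENCODE 44, 2760 bases after the end of STEAP1. In the siNT samples it ranged from 737 to 874 CPM with a median of 812, and in the siCHKA samples from 712 to 964 CPM with a median of 847. Here too the siCHKA samples spread to both sides of the siNT range, with replicates 2, 4 and 6 above it and replicates 3 and 5 below it. The log2 fold change was 0.05 (SE 0.08, 95% confidence interval -0.12 to 0.23, adjusted p = 0.591 by edgeR's quasi-likelihood test; exact two-sided permutation p = 0.626). The ratio of STEAP2 to STEAP1 in CPM per kilobase was 0.892 ± 0.066 after siCHKA and 0.814 ± 0.118 after siNT (SD, n = 6), a difference within the spread of the samples (exact two-sided permutation p = 0.169). It was 0.944 to 0.953 in siCHKA replicates 1, 3 and 5 and 0.806 to 0.878 in replicates 2, 4 and 6. The siNT samples ranged from 0.669 to 0.985.

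**Figure D3:**
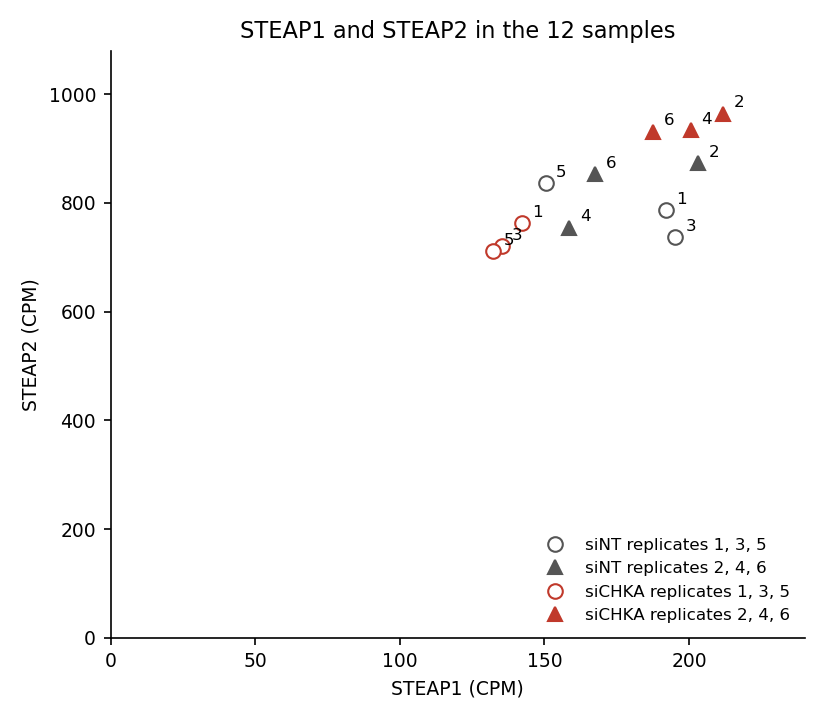
STEAP2 CPM (vertical axis) against STEAP1 CPM (horizontal axis) in the 12 samples, with numbers for replicates, grey for siNT and red for siCHKA. The siCHKA replicates 2, 4 and 6 lie at the upper right (STEAP1 188 to 212 CPM, STEAP2 931 to 964 CPM) and replicates 1, 3 and 5 at the lower left (STEAP1 132 to 142 CPM, STEAP2 712 to 763 CPM).

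STEAP3 (ENSG00000115107, chromosome 2, 119223831 to 119265652, plus strand) fell, with little spread between samples. Its lowest, median and highest CPM were 64.1, 67.0 and 70.3 in the siNT samples and 37.2, 39.7 and 41.0 in the siCHKA samples. All siCHKA samples were below all siNT samples, and the spread was small in both groups (coefficient of variation 3.47% after siCHKA and 3.40% after siNT). The level was 59.2% of siNT, a log2 fold change of -0.76 (SE 0.04, 95% confidence interval -0.85 to -0.66, adjusted p = 1.75e-10 by edgeR's quasi-likelihood test). The exact permutation p was 0.00216, the smallest that 6 against 6 samples can give. An antisense transcript, STEAP3-AS1, shares 10.96% of the STEAP3 exon bases and was at 0.128 ± 0.076 CPM after siCHKA and 0.159 ± 0.110 CPM after siNT (SD, n = 6), with 1 to 5 counts a sample.

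STEAP4 (ENSG00000127954, chromosome 7, 88270892 to 88306894, minus strand), a metalloreductase best known from adipose tissue and inflammation, was close to the limit of detection. The samples held 8 to 27 counts. It ranged from 0.768 to 1.18 CPM in the siNT samples (median 1.14) and from 0.645 to 1.13 CPM in the siCHKA samples (median 0.854), and the groups overlapped. The log2 fold change was -0.28 (SE 0.19, 95% confidence interval -0.67 to 0.11, adjusted p = 0.218 by edgeR's quasi-likelihood test; exact two-sided permutation p = 0.0909), so that a difference was not shown.

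FOLH1 (ENSG00000086205, chromosome 11, 49145092 to 49208638, minus strand) rose. Its lowest, median and highest CPM were 583, 611 and 613 in the siNT samples and 708, 770 and 854 in the siCHKA samples, with no overlap. The siNT samples were nearly uniform (coefficient of variation 2.13%), whereas the siCHKA samples varied more (8.26%). The level was 1.28-fold that of siNT, a log2 fold change of 0.36 (SE 0.06, 95% confidence interval 0.24 to 0.48, adjusted p = 2.76e-05 by edgeR's quasi-likelihood test). No call remained when a change of at least 1.5-fold was tested for.

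ACP3 (ENSG00000014257, chromosome 3, 132317369 to 132368302, plus strand) was also higher, from a low level of 80 to 305 counts a sample. It ranged from 7.39 to 10.8 CPM in the siNT samples (median 7.69) and from 8.52 to 14.6 CPM in the siCHKA samples (median 11.9). Of the siNT samples only replicate 2, at 10.8 CPM, reached the siCHKA range, and the other siNT samples lay between 7.39 and 8.04 CPM. The log2 fold change was 0.50 (SE 0.15, 95% confidence interval 0.18 to 0.82, adjusted p = 0.00853 by edgeR's quasi-likelihood test; exact two-sided permutation p = 0.026). With siCHKA replicates 1, 3 and 5 alone the log2 fold change was 0.13 and the call was lost (adjusted p = 0.404 by the same test).

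TRPM8 (ENSG00000144481, chromosome 2, 233917373 to 234019522, plus strand) had the largest change of the 7. Its lowest, median and highest CPM were 64.5, 70.9 and 90.8 in the siNT samples and 25.6, 35.4 and 45.7 in the siCHKA samples, without overlap. The level was 48.5% of siNT, a log2 fold change of -1.03 (SE 0.14, 95% confidence interval -1.33 to -0.74, adjusted p = 5.88e-06 by edgeR's quasi-likelihood test; exact two-sided permutation p = 0.00216).

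In STEAP1, STEAP2, FOLH1, ACP3 and TRPM8, 5 of the 7 genes, siCHKA replicates 2, 4 and 6 were all above replicates 1, 3 and 5, whichever way the gene moved against siNT. Of all tested genes 22.9% had this order and 24.6% the opposite order. In TRPM8 replicates 1, 3 and 5 were at 25.6 to 28.2 CPM and replicates 2, 4 and 6 at 42.6 to 45.7 CPM. In ACP3 they were at 8.52 to 9.90 and 13.9 to 14.6 CPM, and in FOLH1 at 708 to 737 and 804 to 854 CPM. STEAP3 and STEAP4 had no such order. In siNT cells FOLH1 and ACP3 also had all even-numbered above all odd-numbered samples, where 7.23% of tested genes had a split by odd and even numbers in either direction. The siNT margins were small. For FOLH1 the lowest even sample was at 612.1 CPM and the highest odd sample at 609.9 CPM. For ACP3 these were 7.79 and 7.60 CPM, from 80 and 89 counts. The siNT order is therefore not read as the division seen in the siCHKA samples.

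Fitted against all 6 siNT samples, the sets gave different log2 fold changes. For STEAP1 the value was -0.38 with replicates 1, 3 and 5 (adjusted p = 0.00126 by edgeR's quasi-likelihood test) and 0.16 with replicates 2, 4 and 6 (adjusted p = 0.116). For STEAP2 it was -0.14 (adjusted p = 0.087) and 0.22 (adjusted p = 0.00719). TRPM8 was lower with both sets, by -1.44 and -0.73, and STEAP3 by -0.78 and -0.74. FOLH1 was higher with both, by 0.26 and 0.45. ACP3 had 0.13 and 0.76, the latter with an adjusted p of 2.52e-05. STEAP4 had -0.33 and -0.24, neither past the test. With replicates 1, 3 and 5 alone, 29.3% of tested genes were lower and 30.0% higher, and with replicates 2, 4 and 6 alone 30.7% and 31.5%. The sets share the siNT samples, and the difference between them was not tested. The sets were also formed from the likeness of these same counts, which makes the spread within a set small by choice. The p-values and confidence intervals of the set fits are therefore a description and not evidence for a change.

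**Figure D4:**
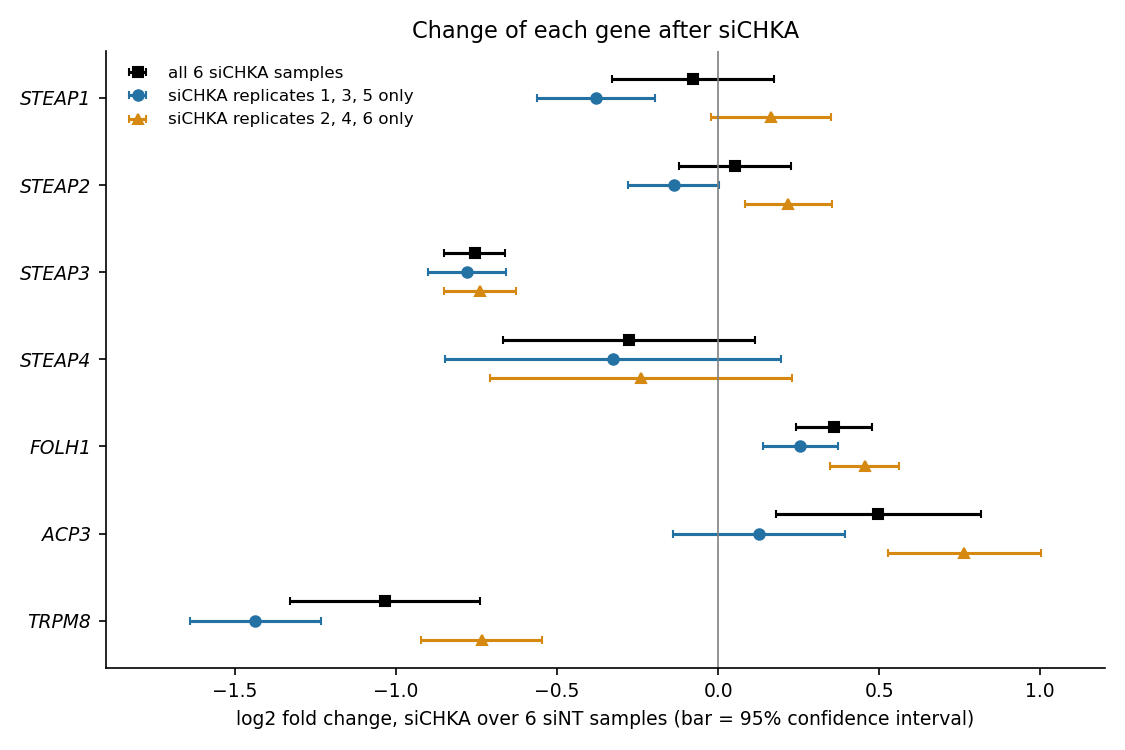
Log2 fold change of each gene with its 95% confidence interval, with all 6 siCHKA samples (squares), replicates 1, 3 and 5 only (circles) or replicates 2, 4 and 6 only (triangles), each against the 6 siNT samples. STEAP3 and TRPM8 are below 0 and FOLH1 above 0 in all 3 fits, while STEAP1 and STEAP2 lie on opposite sides of 0 in the fits of the sets.

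Promoter windows of 300 bases (250 before to 50 after the start, RefSeq, GRCh38.p14) are shown for 4 of the 5 genes with the shared order of siCHKA replicates, since these genes moved together within the group. FOLH1 and MSMB had no entry. The windows are STEAP1 at chr7:90154219-90154518, the more upstream of the STEAP2 starts that RefSeq lists at chr7:90211490-90211789, ACP3 at chr3:132317157-132317456, the upstream start of TRPM8 at chr2:233917123-233917422 and its most downstream start at chr2:233979899-233980198, all on the plus strand. The STEAP2 window lies inside the gene as GENCODE 44 gives it, which begins at 90167590, so the annotations differ in where STEAP2 starts. Capitals mark the word AGAACA.
STEAP1: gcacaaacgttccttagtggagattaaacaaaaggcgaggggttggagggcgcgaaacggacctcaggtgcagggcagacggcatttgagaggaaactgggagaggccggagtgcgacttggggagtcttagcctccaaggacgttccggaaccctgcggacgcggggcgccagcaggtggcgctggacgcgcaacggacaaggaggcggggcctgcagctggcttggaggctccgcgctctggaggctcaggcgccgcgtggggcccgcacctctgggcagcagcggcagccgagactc
STEAP2: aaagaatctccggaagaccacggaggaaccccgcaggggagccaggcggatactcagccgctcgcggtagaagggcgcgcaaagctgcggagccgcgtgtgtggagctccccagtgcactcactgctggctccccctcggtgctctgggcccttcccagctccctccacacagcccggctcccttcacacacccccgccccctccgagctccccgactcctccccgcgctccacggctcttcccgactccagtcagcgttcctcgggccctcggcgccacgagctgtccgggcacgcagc
ACP3: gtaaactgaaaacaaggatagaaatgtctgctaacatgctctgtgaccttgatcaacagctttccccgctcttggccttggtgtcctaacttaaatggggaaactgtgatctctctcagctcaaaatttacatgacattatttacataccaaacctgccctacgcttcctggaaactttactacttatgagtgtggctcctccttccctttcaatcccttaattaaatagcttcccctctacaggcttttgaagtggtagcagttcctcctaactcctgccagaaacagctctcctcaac
TRPM8 upstream: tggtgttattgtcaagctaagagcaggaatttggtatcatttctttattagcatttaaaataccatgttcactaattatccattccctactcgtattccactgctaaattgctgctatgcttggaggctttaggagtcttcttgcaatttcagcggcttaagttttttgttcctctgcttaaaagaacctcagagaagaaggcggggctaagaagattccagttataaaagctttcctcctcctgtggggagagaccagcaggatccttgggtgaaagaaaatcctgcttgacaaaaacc
TRPM8 downstream: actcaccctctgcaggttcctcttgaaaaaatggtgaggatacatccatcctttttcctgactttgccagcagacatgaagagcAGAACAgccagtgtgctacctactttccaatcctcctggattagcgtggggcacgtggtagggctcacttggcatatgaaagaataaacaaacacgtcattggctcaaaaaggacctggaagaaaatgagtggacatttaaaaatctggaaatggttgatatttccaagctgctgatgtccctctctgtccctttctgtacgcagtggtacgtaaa
The windows differ in base composition. The G and C share was 66.7% at STEAP1, 70.3% at the STEAP2 window shown, 43.7% at ACP3 and 41.0% at the upstream start of TRPM8, and 78.7% at STEAP3 and 58.7% at STEAP4. The word AGAACA and its complement TGTTCT, as found in androgen response elements, were in none of the windows of STEAP1, STEAP2, STEAP3, STEAP4 or ACP3. TRPM8 held it at the downstream start shown, at position -166 from that start, and at none of its other listed starts. More starts are listed for TRPM8 than for any other of these genes, so the word had more windows in which to occur. Of all 35116 promoter windows 14.8% held this word on either strand. The forkhead word TGTTTAC or GTAAACA was in 1 window, that of the other RefSeq start of STEAP2, and in 3.42% of all windows. A match is a description of letters and not a binding site.

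Near-identical copies limit what the counts of STEAP1 and FOLH1 can show, since reads of equal match to more than 1 place were left out. Of the distinct 40-base words in the transcripts, 28.4% of those of STEAP1 were shared with STEAP1B and 24.2% of those of FOLH1 with other genes, nearly all with FOLH1B. The share was 10.2% for STEAP3 (mostly STEAP3-AS1), 8.13% for STEAP4, 2.48% for STEAP2, 1.38% for TRPM8 and 0.32% for ACP3. In STEAP3, STEAP4 and TRPM8 most shared words (466 of 471, 601 of 917 and 82 of 111) were shared with a gene on the opposite strand. That gene overlaps exons of the member, so these words are largely the same bases and not a copy elsewhere. The longest stretch that the coding sequence of STEAP1 shares with STEAP1B without a mismatch is 149 bases, and that of FOLH1 with FOLH1B is 414 bases. The middle 60 bases of the STEAP1 stretch, from exon 3 of 5 at chr7:90161008-90161067 on the plus strand (GRCh38), are shown because reads from them cannot be assigned to either gene.
STEAP1 and STEAP1B: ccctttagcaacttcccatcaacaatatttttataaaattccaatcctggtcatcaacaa
STEAP1B (ENSG00000105889), a relative without a known function, was at 0.527 ± 0.222 CPM after siCHKA and 1.14 ± 0.387 CPM after siNT (SD, n = 6), with 4 to 30 counts a sample and a log2 fold change of -1.07 (SE 0.27, adjusted p = 0.00225 by edgeR's quasi-likelihood test). FOLH1B (ENSG00000134612) was at 0.829 ± 0.169 and 0.643 ± 0.233 CPM, with an adjusted p of 0.220.

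The words GCCAGAT and TGCCCTT were looked for in 3′ UTRs because they had been seen to go with lower values in these same data, so they are a description here. The 3′ UTRs of 3 of the 7 genes held either word, which occur once each in STEAP2, with TGCCCTT once in FOLH1 and GCCAGAT once in TRPM8. Either word was in 21.9% of the 12301 tested genes whose 3′ UTR was examined, with a median log2 fold change of -0.12 against 0.03 in the others. Of the genes that changed, TRPM8 (lower) and FOLH1 (higher) held 1 word each, and STEAP3 (lower) and ACP3 (higher) held neither. The part of these words in the results was not tested.

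The genes whose log2 CPM ran most like each member over the 12 samples are given as a description, since all samples share the group difference and the order of the siCHKA replicates. TRPM8 ran most like KLK2 (Pearson r = 0.997), which encodes a kallikrein protease, TNFRSF19 (0.992) and ATF4 (0.991). STEAP3 ran most like KIFC1 (0.997), a mitotic kinesin, NCAPD3 (0.996), a condensin subunit, and CDCA5 (0.996), a cohesion factor. FOLH1 ran most like ENSG00000206029 (0.996), CHURC1 (0.986) and CAMK2N1 (0.985). The values were lower for ACP3 with P4HTM (0.938), LACTB2 (0.936) and GAS5 (0.928). STEAP1 ran most like THYN1 (0.978), OCIAD1 (0.952) and ENSG00000116957 (0.949), and STEAP2 most like KLF15 (0.967), DDIT3 (0.924) and ELF5 (0.923).

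Genes that share a function with the members were counted in lists, with the log2 fold change of siCHKA over siNT in parentheses after each gene named. Of 32 tested genes of iron and copper handling, the process in which the STEAP reductases work, 14 were lower and 9 higher after siCHKA, with a median log2 fold change of -0.18. These are 43.8% and 28.1% of the list, where 30.1% of all tested genes were lower and 32.1% higher, with a median of 0.04. TFRC, the transferrin receptor that delivers iron to STEAP3-containing endosomes, was at 619 ± 20.5 CPM after siCHKA and 1220 ± 79.1 CPM after siNT (SD, n = 6; log2 fold change -0.98, SE 0.05). The haem transporter SLC48A1 (-1.11), the haem oxygenase HMOX2 (-0.74) and the iron regulatory protein IREB2 (-0.86) were also lower. SLC11A1, an endosomal metal transporter, was higher (2.05), as were the ferritin light chain FTL (0.75), the iron-sensing ubiquitin ligase subunit FBXL5 (0.49) and the metal transporter SLC11A2 (0.36).

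Of 24 tested genes of folate handling and glutamate peptidases, the setting of FOLH1, 17 were lower and 5 higher, or 70.8% and 20.8% beside the 30.1% and 32.1% of all tested genes. The list had a median of -0.34 on the log2 scale, and FOLH1 itself was higher. Among the lower genes were TYMS (-1.63), which encodes thymidylate synthase, the FOLH1 relative NAALADL2 (-0.93) and SLC25A32 (-0.90), the mitochondrial folate carrier. MTHFD2L (0.84), FPGS (0.28), which adds the glutamates that FOLH1 removes, and ALDH1L2 (0.46) were higher.

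Among 5 tested acid phosphatases other than ACP3, PXYLP1 (-1.42) and the lysosomal ACP2 (-0.89) were lower, and ACP6 (0.36) and ACP1 (0.21) were higher, 2 of 5 in each direction beside the same shares of all tested genes. Among 11 tested TRP channels other than TRPM8, 2 were lower (18.2%) and 3 higher (27.3%), beside the 30.1% and 32.1% of all tested genes. The lower ones were MCOLN1 (-0.42) and TRPV6 (-0.66), an epithelial calcium channel. TRPM4 was higher (0.41), and PKD2L2 and TRPC1 were higher from siNT levels of 0.274 ± 0.085 and 0.310 ± 0.177 CPM (SD, n = 6), near the 3-count level. Both passed the expression filter through the siCHKA samples (means 0.984 and 1.08 CPM), so their direction was tied to the filter. The share of higher TRP channels includes them. With at least 10 counts in every sample, 1 TRP channel was higher.

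Of 30 tested other prostate-enriched genes, 13 were lower (43.3%, beside 30.1% of all tested genes) and 9 higher (30%, beside 32.1%), with a median log2 fold change of -0.14. The lower ones named by the rule were RDH11 (-2.09), a retinol dehydrogenase, NCAPD3 (-1.92), the zinc transporter SLC30A4 (-0.67) and TRGC1, which was at 0.068 ± 0.055 CPM after siCHKA and 1.12 ± 0.314 CPM after siNT (SD, n = 6). TRGC1 passed the expression filter through the siNT samples, so its direction was tied to the filter. The protease genes HPN (0.89) and KLK4 (0.66) and PRAC1 (0.78) were among the higher ones.

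**Figure D5:**
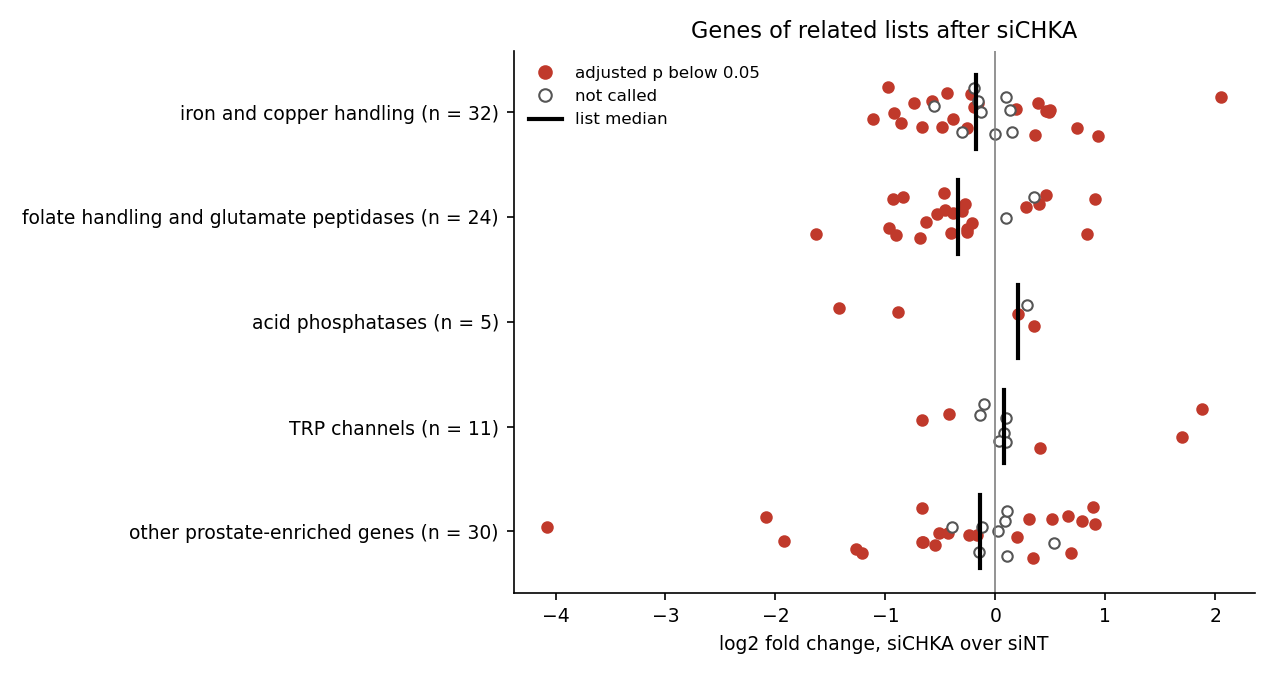
Log2 fold change of each tested gene in the lists of related genes, with a line at the list median, filled points for genes called by edgeR's quasi-likelihood test (adjusted p below 0.05) and open points for the others. Most genes of the folate and glutamate peptidase list lie below 0 (17 of 24 called lower), and the other lists spread to both sides.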

How the data were processed

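Per the labels, the authors aligned single-end reads of C4-2 RNA to GRCh37 with TopHat2 (2.0.4), counted them per Ensembl gene with HTSeq (0.5.3p9) and deposited raw counts, 4 files for each of 12 samples. The study used DESeq (1.10.1). Files of a sample were summed, and the 5 special HTSeq rows were left out. Symbols came from a reference table by Ensembl identifier (82.8% of identifiers matched), and coordinates and lengths from GENCODE 44 (GRCh38).

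Genes passing filterByExpr (14501) were TMM-normalized and tested with edgeR 4.0.16 (R 4.3.3, quasi-likelihood test, no covariates, Benjamini-Hochberg adjustment, threshold 0.05). Log2 CPM used a prior count of 2, and permutation tests were exact and two-sided. Scripts were tested on simulated data. Confidence intervals are of edgeR log2 fold changes and include the spread between samples. The 3-count level covers counting error only.

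The genes and lists were chosen with earlier results of these data known. All members are named, with at most the 4 list genes of smallest p in each direction and the 3 genes of at least 10 CPM most like each member of at least 1 CPM; some genes that the rule names are not reported here. Alternatives were RLE, DESeq2 1.42.0, other filters, a replicate block, 1 count file, each sample left out, sets of siCHKA replicates and a 1.5-fold minimum.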

Additional observations from a re-analysis of the deposited data

Results flagged for a closer look

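ACP3 in siNT replicate 2 was at 10.8 CPM, whereas the other siNT samples were at 7.39 to 8.04 CPM, and its gap to the nearest sample was 0.811 of the range of the group. STEAP4 in siNT replicate 1 was at 0.768 CPM, from 9 counts, whereas the other siNT samples were at 1.07 to 1.18 CPM, and its gap was 0.735 of the range. Both gaps exceed Dixon's 95% critical value for 6 samples. Chance flags about 1 in 20 groups, or 0.7 of the 14 groups examined here, and 2 were found.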

How the results depend on the processing

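STEAP3 (-0.79 to -0.70) and TRPM8 (-1.44 to -0.73) kept their direction and call under all 21 alternatives, and STEAP4 was called under none of the 19 in which it was tested. It was not tested with at least 10 counts in every sample or with 1 count file. With siCHKA replicates 1, 3 and 5 only, STEAP1 was called lower (-0.38), STEAP2 changed sign (-0.14), ACP3 lost its call (0.13) and 1 member was called higher. With replicates 2, 4 and 6 only, STEAP1 changed sign (0.16), STEAP2 was called higher (0.22) and 5 TRP channels were higher. These sets were formed from the same counts, so calls gained or lost with them are a description. The cause was not tested. A minimum of 1.5-fold, which is stricter by construction, left 1099 lower and 1015 higher genes of 4371 and 4650. It ended the calls of FOLH1 (0.36) and ACP3 (0.50), so that 0 members were higher. Lower and higher genes were then 4 and 2 in the iron and copper list, 5 and 1 in the folate list, and 5 and 1 in the prostate-enriched list, with 0 acid phosphatases higher and 0 TRP channels lower. With 1 count file, 1 acid phosphatase and 1 TRP channel were higher, and with at least 10 counts in every sample 1 TRP channel was higher. These 2 settings tested fewer genes, with 3413 of 11994 and 4282 of 12785 higher. A smaller list count there can therefore come from genes that were not tested.

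Leaving out any 1 sample changed no member's call. The replicate numbers did not pair the samples: the correlation of deviations passed 0.1 in 2 of 6 pairs (-0.40 to 0.32), and 1 of 6 samples correlated best with its own number. A fit with that number as replicate block called 4273 genes down and 4494 up, with 2 members each way. The block gave STEAP1 -0.10, STEAP2 0.04, STEAP3 -0.76, STEAP4 -0.27, FOLH1 0.36, ACP3 0.48 and TRPM8 -1.07. STEAP4, STEAP1B and FOLH1B held 4 to 30 counts a sample, where counting error is large.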
